A study of Arabidopsis thaliana with 8 samples.

Results

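Aminoacyl-tRNA synthetases are the enzymes that load each amino acid onto its transfer RNA before translation. Here they were the 55 loci, of 24648 loci on the array, whose description in the 3 d array files named a tRNA synthetase or a tRNA ligase. The rule used names and no measured value, and 62 spots carried the 55 loci. Transcripts of a pair of Arabidopsis thaliana crosses competed on 2-colour arrays. Each of the stages, 3 d and 6 d from pollination, was measured on 4 arrays. In the first, called the bdl cross here, the stock line M0191 was the female parent and bdl the male parent. In the second, called the Col-0 cross, the female parent was M0171 and the male parent was Col-0. The ecotype of both is labelled Col-0, the tissue is labelled as embryos isolated after pollination, and no chemical treatment is named. The bodenlos (bdl) mutation is known to stabilise the auxin repressor IAA12. The labels describe neither M0191 nor M0171 further, and the crosses differed in both parents, so the parents' parts in any difference cannot be told apart.

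Plant cells make proteins in the cytosol, in plastids and in mitochondria, and each place needs charged transfer RNAs. All the enzymes are encoded in the nucleus: one set works in the cytosol, and another is imported into the organelles, where a single protein often serves plastids and mitochondria alike. The family falls into class I and class II by the fold of the catalytic domain. In Arabidopsis, loss of many of the organellar enzymes stops ovule or seed development, which gave genes the names OVULE ABORTION (OVA) and EMBRYO DEFECTIVE (EMB). By knowledge of the enzymes, 26 loci were listed as cytosolic and 19 as organellar. The other 10 loci were placed in neither list, since their compartment was not known well enough to assign. Most of their descriptions give a related protein, a signature or an associated domain, while AT1G17960 is described as a putative synthetase.

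A log2 ratio above 0 is higher in the bdl cross throughout. Errors after ± are standard errors of the limma fit, and a gene was called, and is said to have risen or fallen, at a limma p under 0.05 after Benjamini-Hochberg adjustment over all genes tested. The p-values rest on the spread between arrays left after a term for dye orientation, which limma moderates with the spread of all genes. The labels call the samples of the 4 arrays biological replicates. On the 3 d arrays, 22327 to 25322 of 27530 gene spots held values, and IAA12 itself rose at both stages, with log2 ratios of 3.40 (adjusted p = 0.0224) and, on the later arrays, 0.31 (adjusted p = 0.0282). Of 10 embryo markers, 10 lay above the blank spots in both crosses at 3 d, and so did 7 of 8 endosperm markers and 8 of 8 seed coat markers, FIS2 being the exception. The summed 3 d signal of the endosperm markers was 11760 to 15690 in the bdl cross and 6778 to 8147 in the Col-0 cross, and that of the seed coat markers was 76240 to 119900 and 47650 to 82630. MPC gave the largest part of the endosperm sum (12621 and 5770 on replicate 1), and BAN and TT4 most of the seed coat sum. Of 7 endosperm markers tested at 3 d, 2 rose and 0 fell, and of 8 seed coat markers 1 rose and 0 fell. The endosperm marker MEA was at −0.23 without a call. The embryo markers summed to 40390 to 78690 and 57620 to 96300, while 5 of the 10 rose and 4 fell at 3 d (median 0.36). Most of the embryo sum came from PDF1, which fell (23804 and 56630 on replicate 1), and LEC1, which rose (21620 and 15064). At 6 d, 3 of 9 embryo markers rose and 4 fell (median 0.78), 4 of 7 endosperm markers rose and 0 fell (median log2 ratio 1.60), and 4 of 8 seed coat markers rose and 1 fell (median 0.56). Over all genes tested, 26.7% rose and 26.7% fell at 6 d, and 7.01% rose and 6.1% fell at 3 d. These marker levels thus differed between the crosses too, and their part in the synthetase results below was not tested. In whole embryo samples, fewer cells of a type and less RNA per cell cannot be told apart.

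At 6 d, most synthetase genes were lower in the bdl cross. Of 51 tested, 31 fell and 3 rose, where 26.7% of all genes tested fell and 26.7% rose. The median log2 ratio was −0.74, which is 1.67-fold lower, against −0.02 over all genes. In all, 13 members had a called ratio of −1 or lower, and the share of all genes with such a ratio was not counted. The lower quartile of all genes tested was −0.61. On the individual arrays the median over the family was −0.71, −0.66, −0.63 and −0.64. Of 50 members with a value on each 6 d array, 37 lay below 0 on all 4, against 36.9% of all genes, and 3 lay above 0 on all 4, against 35.6% of all genes.

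At 3 d the ratios were small. Of 50 members tested, 0 rose and 2 fell, where 7.01% of all genes tested rose and 6.1% fell. The median log2 ratio was −0.20, against −0.01 over all genes, and 41 of the 50 ratios were below 0, which is 82%, against 50.6% of all genes. The array medians of the family were −0.16, −0.18, −0.18 and −0.14. Of 45 members with 4 values, 29 were below 0 on all 4 arrays, against 26.9% of all genes, and 3 were above 0 on all 4, against 26.8%. At an unadjusted p under 0.05 there were 17 members, 34% of those tested against 36.1% of all genes; 16 of them were lower and 1 higher, where 17.7% of all genes were lower and 18.4% higher. The count of calls at this stage moved widely with the setting: it was 18 with an intensity trend in the variance prior (17 lower, where 14.2% of all genes were), 16 where both channels had to exceed the blank spots on all 4 arrays (15 lower of 41 tested, where 19.6% of all genes were), and 0 without any 1 of the 4 arrays, where 0 of all genes were called too. Without 1 array and with no dye term it was 2, 2, 1 and 7.

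**Figure D1:**
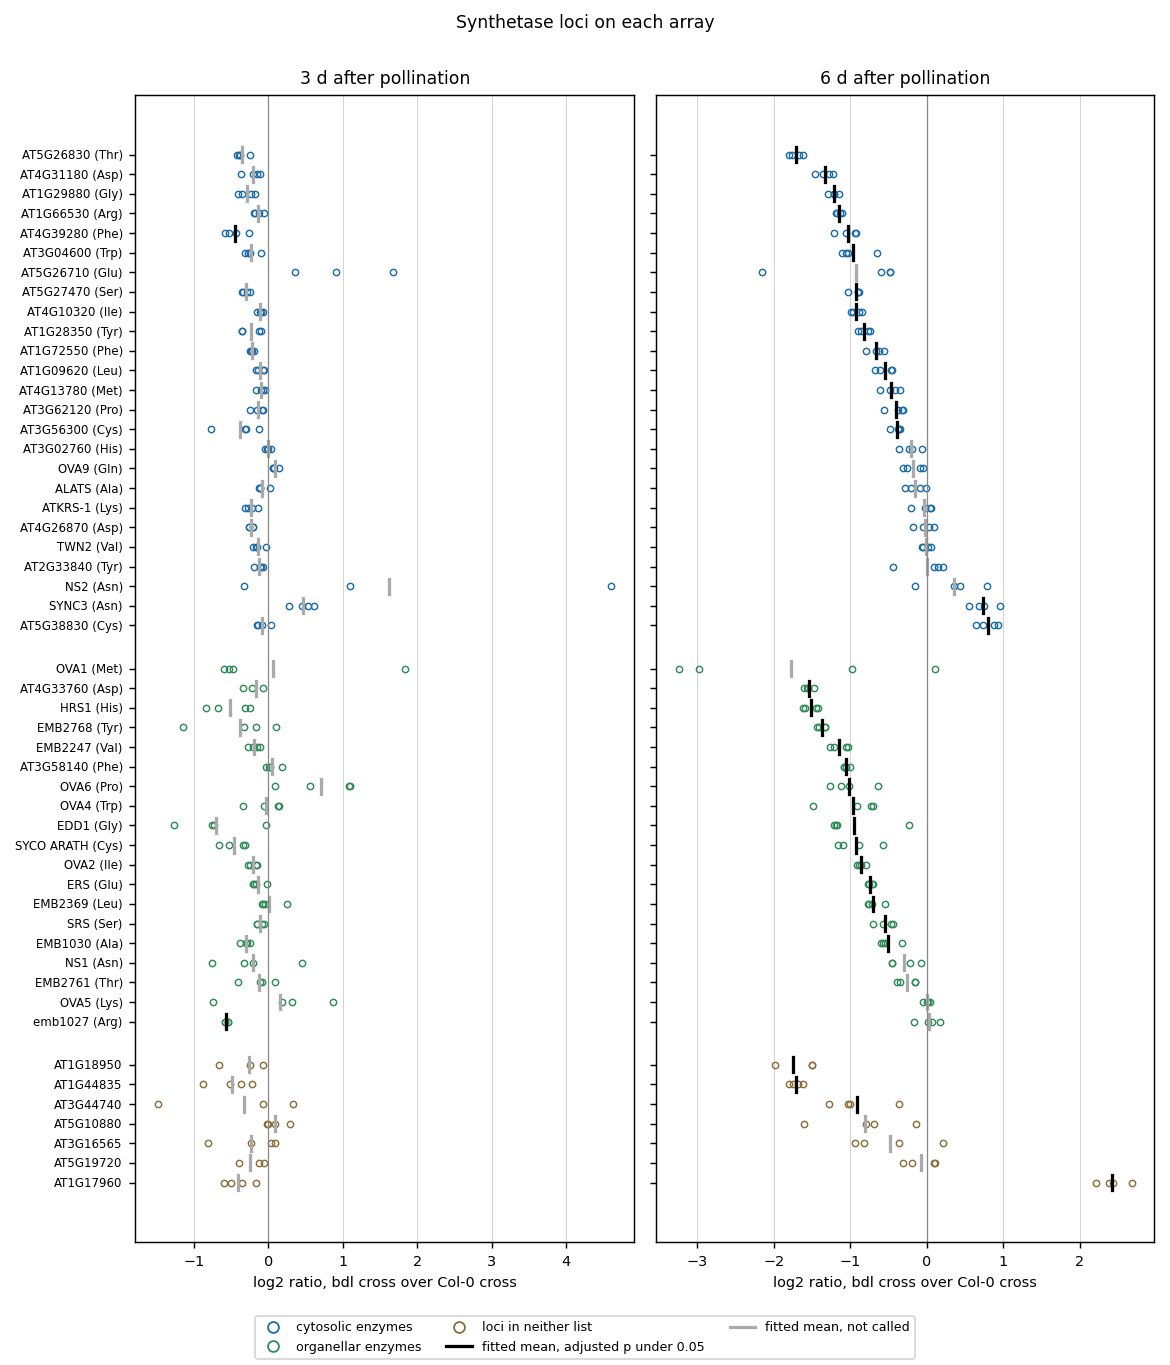
Log2 ratio (bdl cross over Col-0 cross) on each array (open circles) for the 51 synthetase loci tested at 6 d, at 3 d (left) and 6 d (right); the axes differ in range. Vertical bars are fitted means, black where the limma adjusted p is under 0.05; at 3 d 2 bars are black, and at 6 d 34 are, 31 of them left of 0.

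The difference between stages was tested directly in a fit of all 8 arrays, with no filter on dim probes. In that fit 26 of 51 members were lower at 6 d than at 3 d and 3 were higher, where 20.7% of all genes were lower and 23.9% higher. The median difference was −0.49. Of the 31 members that fell at 6 d, 24 had no call at 3 d and a lower ratio at 6 d by this test, and 1 was called at each step. Another 15 members were not called at 3 d, at 6 d or between the stages. Across the 50 members tested at both stages, Spearman's rho between the 3 d and the 6 d ratios was 0.275 and Pearson's r was 0.233; the points share the arrays and their scaling. Over the 41 members with both channels above the blank spots on all 4 arrays at 3 d, rho was 0.303. Of these 41, 25 fell and 3 rose at 6 d, where 26.7% of all genes tested fell and 26.7% rose.

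**Figure D2:**
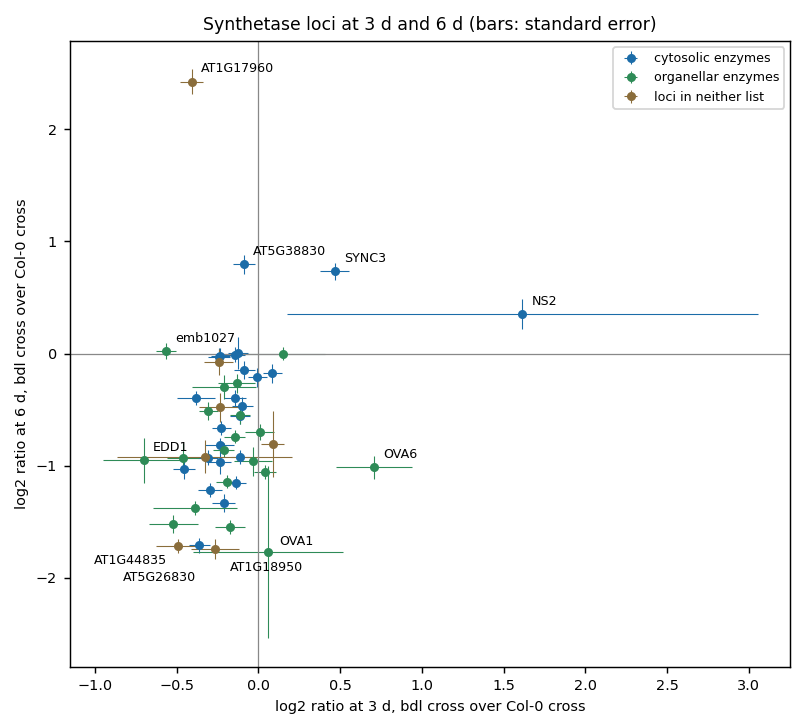
Each point is a synthetase locus tested at both stages, with its log2 ratio (bdl cross over Col-0 cross) at 3 d on the horizontal axis and at 6 d on the vertical axis; bars are standard errors. Most points lie within 0.5 of 0 at 3 d and below 0 at 6 d, while AT1G17960 stands at −0.41 and 2.42 and OVA6 at 0.71 and −1.01.

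The cytosolic enzymes charge the transfer RNAs that serve the bulk of cellular protein synthesis. At 6 d, 14 of 25 tested fell, which is 56%, and 2 rose, where 26.7% of all genes tested fell and 26.7% rose. The median of the 25 was −0.47, and the array medians were −0.56, −0.47, −0.41 and −0.48. AT5G26830, the threonyl enzyme known to serve the cytosol and mitochondria, had the lowest ratio of this group. Its ratios were −1.76, −1.62, −1.67 and −1.80 on the 6 d arrays and −0.42, −0.39, −0.25 and −0.38 on the 3 d arrays. All 8 values were below 0, and the stages did not overlap. It fell 3.27-fold at 6 d (−1.71 ± 0.07, limma adjusted p = 0.0026), and its 3 d ratio of −0.36 ± 0.06 was not called (adjusted p = 0.0556).

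AT4G31180 is the aspartyl enzyme known as IBI1, a receptor of the priming agent beta-aminobutyric acid. Its ratios at 6 d were −1.27, −1.36, −1.47 and −1.22, all below its 3 d range of −0.36 to −0.12, and it fell 2.52-fold (−1.33 ± 0.08, limma adjusted p = 0.0032). The other cytosolic aspartyl gene, AT4G26870, lay near 0 at 6 d, with ratios from −0.18 to 0.09 and a fitted value of −0.03 ± 0.08 (adjusted p = 0.796). AT1G29880, the glycyl enzyme of cytosol and mitochondria, had 6 d ratios of −1.15, −1.22, −1.30 and −1.21 and fell 2.33-fold (adjusted p = 0.00283). The 4 arrays of AT1G66530, the cytosolic arginyl enzyme, lay between −1.19 and −1.11, a fall of 2.22-fold (adjusted p = 0.00283). Neither had been called at 3 d, where the fitted ratios were −0.30 and −0.14.

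Cytosolic phenylalanyl-tRNA synthetase is built of alpha and beta subunits from different genes. The alpha gene AT4G39280 was one of the members called at 3 d. Its signal in the bdl cross was 24860, 25174, 19506 and 16615 on replicates 1 to 4, against 37362, 36371, 26473 and 19953 in the Col-0 cross. The bdl cross was lower on every array, with log2 ratios of −0.59, −0.53, −0.44 and −0.26. The fitted ratio was −0.46 ± 0.07 (limma adjusted p = 0.0473); the call was lost with dim probes kept (adjusted p = 0.057), with the mean over probes (adjusted p = 0.0507) and without any 1 array (adjusted p up to 0.178). At 6 d it was −0.93, −1.21, −0.94 and −1.05, a fall of 2.05-fold (adjusted p = 0.00496). The beta gene AT1G72550 had a 6 d ratio of −0.66 ± 0.07 (adjusted p = 0.00685) on its brightest probe and −0.83 on another, but 0.57 on the remaining one, and its fall was not called for the mean of its probes (−0.31, adjusted p = 0.435).

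Among the other cytosolic falls at 6 d were the tryptophanyl gene AT3G04600 (−0.96 ± 0.11), the seryl gene AT5G27470 (−0.93 ± 0.06) and the isoleucyl gene AT4G10320 (−0.92 ± 0.06). The smallest cytosolic falls were those of the cysteinyl gene AT3G56300 (−0.40 ± 0.06, limma adjusted p = 0.0172) and the prolyl gene AT3G62120 (−0.40 ± 0.08, adjusted p = 0.0274); neither was called without any 1 array, with adjusted p up to 0.0774 and 0.1. The leucyl gene AT1G09620 (−0.55) and the methionyl gene AT4G13780 (−0.47) also lost their calls without single arrays, with adjusted p up to 0.0557 and 0.0786. The cytosolic enzymes near 0 at 6 d included the lysyl gene ATKRS-1 (−0.03 ± 0.08) and the valyl gene TWN2 (−0.01 ± 0.06), whose twin2 mutant forms extra embryos from the suspensor. The alanyl gene ALATS was at −0.15 ± 0.08 and the glutaminyl gene OVA9 at −0.18 ± 0.08. None of these 4 was called (adjusted p = 0.174 for OVA9 and 0.209 for ALATS).

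Both cytosolic rises at 6 d were in small gene groups for a single amino acid. AT5G38830, a cysteinyl enzyme, had 6 d ratios of 0.64, 0.88, 0.92 and 0.74, all above its 3 d range of −0.15 to 0.03. It rose 1.74-fold (0.80 ± 0.08, limma adjusted p = 0.00784), and the difference between stages was 0.88 ± 0.10 (adjusted p = 0.000563). SYNC3, an asparaginyl enzyme, had ratios of 0.61, 0.27, 0.45 and 0.53 at 3 d and 0.68, 0.55, 0.95 and 0.75 at 6 d, so that all 8 were above 0. Its 6 d ratio of 0.73 ± 0.08 (1.66-fold, adjusted p = 0.00754) was called, while its 3 d ratio of 0.47 ± 0.09 was not (adjusted p = 0.0625), nor was the stage difference (0.26, adjusted p = 0.106).

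Further asparaginyl genes were too dim to weigh. NS2 exceeded the blank spots in the Col-0 cross on 1 array at 3 d, where its ratios were 1.09, 4.60 and −0.33 on replicates 2 to 4; at 6 d they were 0.43, 0.78, 0.35 and −0.15 (0.35 ± 0.14, limma adjusted p = 0.117). SYNC1 lay above the blank spots in the bdl cross on 1 array and in the Col-0 cross on 0 arrays, and was not tested at either stage. AT5G26710, the cytosolic glutamyl enzyme, was dim at 3 d. It was above the blank spots on 1 array in the bdl cross and 0 in the Col-0 cross, and was not tested there. It was tested at 6 d and for the stage difference, whose fits had no filter on dim probes. Its 6 d ratios were −0.48, −0.60, −2.15 and −0.49 (−0.93 ± 0.34, adjusted p = 0.105), with replicate 3 far below the others.

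The organellar enzymes are imported into plastids and mitochondria. Of 19 tested at 6 d, 14 fell, which is 73.7%, and 0 rose, where 26.7% of all genes tested fell and 26.7% rose. Their median was −0.93, with array medians of −0.91, −0.86, −0.72 and −0.77. At 3 d, 1 of the same 19 fell and 0 rose, where 6.1% of all genes tested fell and 7.01% rose. Their 3 d median was −0.17. The organellar median minus the cytosolic median was −0.35, −0.39, −0.31 and −0.29 on the 6 d arrays (mean −0.33, SD 0.05, n = 4). On the 3 d arrays it was −0.06, 0.05, −0.05 and −0.12 (mean −0.05, SD 0.07, n = 4). The organellar set was thus the lower on each 6 d array, and on 3 of 4 at 3 d; this is a description of the lists, with no test.

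AT4G33760, the organellar aspartyl enzyme, had 6 d ratios of −1.56, −1.55, −1.60 and −1.48. The 3 values it had at 3 d, −0.07, −0.22 and −0.34, all lay above these. It fell 2.92-fold at 6 d (−1.55 ± 0.06, limma adjusted p = 0.0026), with a stage difference of −1.35 ± 0.10 (adjusted p = 0.000295). HRS1, the organellar histidyl enzyme, had 6 d ratios of −1.62, −1.44, −1.42 and −1.60 and fell 2.87-fold (adjusted p = 0.00281). Its 3 d ratios were below 0 on each array, from −0.84 to −0.25, without a call (adjusted p = 0.115). AT3G58140, the organellar phenylalanyl enzyme, lay between −0.03 and 0.18 at 3 d and between −1.08 and −1.01 at 6 d, a difference of −1.10 ± 0.08 (adjusted p = 0.000112).

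A set of 20 loci carry a name or a known phenotype tied to ovules or embryos, and 19 of them were tested at 6 d. Of these, 12 fell and 0 rose, where 26.7% of all genes tested fell and 26.7% rose. The median of the 19 was −0.74, the same as that of the whole family to this precision. EMB2768, the organellar tyrosyl enzyme, had the lowest called ratio among them. Its 4 arrays at 6 d read −1.33, −1.41, −1.43 and −1.33, a fall of 2.60-fold (−1.38 ± 0.06, limma adjusted p = 0.00269), while at 3 d they spread from −1.15 to 0.10. The −1.15 came from replicate 1, where its bdl signal of 31.9 lay under the blank-spot threshold of 77.1. EMB2247, the organellar valyl enzyme, had 6 d ratios from −1.27 to −1.03 and fell 2.21-fold (−1.14 ± 0.06, adjusted p = 0.00286). IBI1, given above, belongs to the same set.

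The OVA genes named for aborted ovules were spread from −1.77 to 0.00 at 6 d. OVA6, the prolyl enzyme, had 3 d ratios of 0.09, 1.10, 0.56 and 1.08 and 6 d ratios of −1.12, −1.27, −1.02 and −0.64. It was thus above 0 on every 3 d array, where its Col-0 signal exceeded the blank spots on 3 of 4, and below 0 on every 6 d array. Its 3 d ratio of 0.71 ± 0.23 was not called (limma adjusted p = 0.139), its 6 d ratio of −1.01 ± 0.10 was (adjusted p = 0.0069), and the stage difference was −1.72 ± 0.25 (adjusted p = 0.00197). OVA4, tryptophanyl, stood at −0.96 ± 0.13 at 6 d, with adjusted p = 0.0125 and up to 0.0547 without a single array; its other probes read −1.43 and −2.24. OVA2, isoleucyl, stood at −0.86 ± 0.06 and ERS, the glutamyl enzyme also called OVA3, at −0.74 ± 0.06; both fell. SRS, the seryl enzyme also called OVA7, fell by 0.55 on the log2 scale (adjusted p = 0.0154, up to 0.0619 without a single array).

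OVA1, the organellar methionyl enzyme, gave values that scattered between arrays at both stages. At 6 d its ratios were −3.25, −0.98, 0.11 and −2.97, with a fitted value of −1.77 ± 0.77 (limma adjusted p = 0.147). At 3 d its signal in the bdl cross was 5116, 4421 and 5764 on replicates 1 to 3 but 125 on replicate 4, and in the Col-0 cross 7394, 6669 and 7998 but 35. The ratios were −0.53, −0.59, −0.47 and 1.84, so that replicate 4 stood apart in level and in sign. OVA5, the lysyl enzyme, had 6 d ratios between −0.06 and 0.04, and NS1, the asparaginyl enzyme also called OVA8, had −0.30 ± 0.11 (adjusted p = 0.101); neither was called.

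The remaining embryo-named members fell or lay near 0 at 6 d. EMB2369, leucyl, fell by 0.70 on the log2 scale (limma adjusted p = 0.0078). EMB1030, alanyl, had −0.51 ± 0.08 (adjusted p = 0.0175, up to 0.078 without a single array) and SYCO, the organellar cysteinyl enzyme, −0.93 ± 0.13 (adjusted p = 0.0137, up to 0.0571). EDD1, the glycyl enzyme, had 6 d ratios of −1.18, −0.23, −1.19 and −1.22. Replicate 2 stood apart, the 3 d signal was above the blank spots on 2 arrays in the bdl cross and 3 in the Col-0 cross, and the fitted −0.95 ± 0.20 (adjusted p = 0.0323) ranged from −1.19 to −0.71 without single arrays, with adjusted p up to 0.105. EMB2761, threonyl, was below 0 on each array, from −0.39 to −0.15, without a call (−0.26 ± 0.08, adjusted p = 0.0813).

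The arginyl gene emb1027 was lower in the bdl cross at 3 d and not at 6 d. Its signal at 3 d was 10226, 12022, 12010 and 6440 in the bdl cross and 14906, 17990, 18040 and 9422 in the Col-0 cross. The log2 ratios were −0.54, −0.58, −0.59 and −0.55, with an SD of 0.02 over the 4 arrays. It fell at 3 d (−0.57 ± 0.06, limma adjusted p = 0.0336; up to 0.155 without a single array). At 6 d its ratios of 0.07, 0.17, −0.16 and 0.01 lay on both sides of 0 (0.02 ± 0.07, adjusted p = 0.821), and the stage difference was 0.59 ± 0.09 (adjusted p = 0.00197).

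Enzymes that charge the same amino acid in different compartments could be set side by side for 19 amino acids. At 6 d the ratio was below 0 for both compartments, taking the mean over loci of a compartment, in 15 of them, and the organellar enzyme had the lower ratio in 11. Over the 24 pairs of loci, the organellar gene had the lower ratio on all 4 arrays in 14 pairs and the cytosolic gene in 3, and the other 7 were mixed. The 14 include NS1 with NS2, which was dim at 3 d. They also include AT3G58140 with AT1G72550, whose probes read −0.66, −0.83 and 0.57 at 6 d. The organellar genes for asparagine, aspartate, cysteine, phenylalanine and tyrosine recur in the 24 pairs, so the pairs are not independent. The gaps are differences of ratios, not of levels, since a probe's level cannot be set against that of another probe. The widest gap, organellar minus cytosolic, was for cysteine, −1.73 between SYCO and AT5G38830 (arrays −2.09 to −1.21). For aspartate it was −1.52 between AT4G33760 and AT4G26870 (−1.64 to −1.42), for tyrosine −1.38 between EMB2768 and AT2G33840 (−1.58 to −0.96), and for histidine −1.31 between HRS1 and AT3G02760 (−1.43 to −1.21). Valine had a gap of −1.13 between EMB2247 and TWN2, and asparagine one of −1.03 between NS1 and SYNC3. The methionine gap of −1.31 rests on OVA1 and ran from −2.63 to 0.52 over the arrays. At 3 d the widest gap between genes above the blank spots in both crosses on 3 arrays or more was for proline, 0.85 between OVA6 and AT3G62120.

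On all 4 arrays, the opposite order held for threonine, arginine and serine. The threonyl gap was 1.45, with EMB2761 above AT5G26830 by 1.23 to 1.65 on the 4 arrays. The arginyl gap was 1.17, with emb1027 above AT1G66530 by 0.94 to 1.34; at 3 d the same gap was −0.43. The seryl gap was smaller, 0.38 between SRS and AT5G27470. It rests on the brightest SRS probe. The other SRS probes read −0.40 and −1.23 at 6 d, on both sides of the −0.93 of AT5G27470. The organellar enzyme was also the higher for glycine, by 0.27 (EDD1 and AT1G29880), and for glutamate, by 0.19 (ERS and AT5G26710), but with arrays on both sides of 0. For isoleucine, lysine and tryptophan the pairs differed by 0.06, 0.03 and 0.01, less than the spread between arrays. The tryptophan gap rests on the brightest probes. The other OVA4 probes read −1.43 and −2.24 at 6 d, and the other AT3G04600 probe −1.04.

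**Figure D3:**
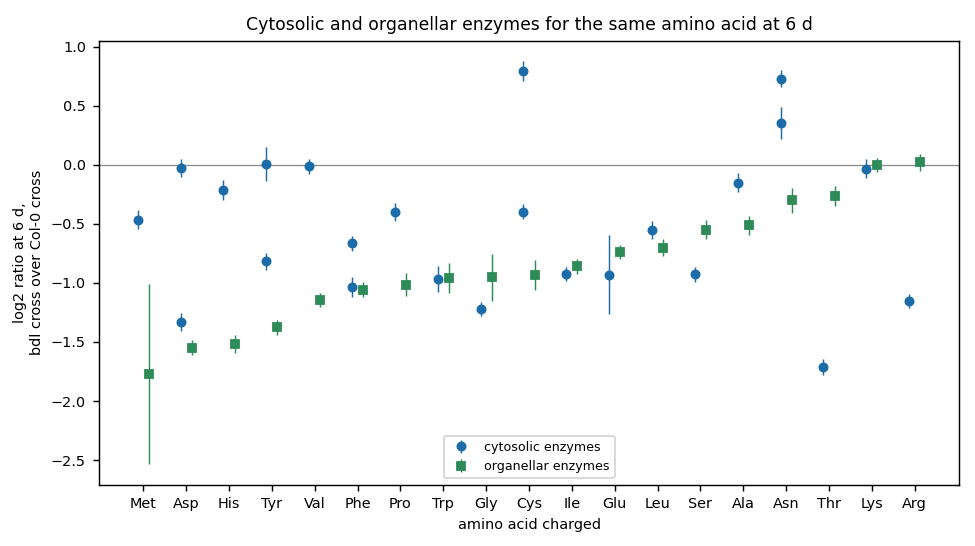
Log2 ratio at 6 d (bdl cross over Col-0 cross, vertical axis) of cytosolic (circles) and organellar (squares) enzymes for each of 19 amino acids, ordered by the organellar value; bars are standard errors. The organellar squares lie well below a cytosolic circle for Asp, His, Tyr, Val and Cys, and above it for Thr and Arg.

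By catalytic fold, 14 of 21 class I enzymes fell and 1 rose at 6 d (median −0.82). Of class II, 14 of 23 fell and 1 rose (median −0.55). Over all genes tested, 26.7% fell and 26.7% rose. The difference between classes was not tested.

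The 10 loci in neither list included the highest and some of the lowest ratios. AT1G17960, described as a putative threonyl-tRNA synthetase, had signals of 380, 247, 405 and 408 in the bdl cross and 488, 278, 573 and 620 in the Col-0 cross at 3 d, so that the bdl cross was lower on each array. Its log2 ratios were −0.36, −0.17, −0.50 and −0.60 at 3 d (−0.41 ± 0.07, limma adjusted p = 0.0557) and 2.43, 2.38, 2.68 and 2.21 at 6 d. It rose 5.37-fold at 6 d (2.42 ± 0.11, adjusted p = 0.00268), and the stage difference of 2.83 ± 0.14 (adjusted p = 2.74e-05) was the largest of the family in size. Set against the listed threonyl gene AT5G26830, its ratio differed by −0.05 at 3 d (arrays −0.25 to 0.22) and by 4.13 at 6 d (3.99 to 4.34).

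AT1G44835 is described by a YbaK domain, which in bacterial proteins removes wrongly attached amino acids from transfer RNA. Its 6 d ratios were −1.62, −1.69, −1.75 and −1.81, below its 3 d range of −0.87 to −0.22, and it fell 3.28-fold (−1.71 ± 0.06, limma adjusted p = 0.00257). AT1G18950, whose description holds only a class II synthetase signature, had 6 d values on 3 arrays, −1.98, −1.51 and −1.51 (−1.74 ± 0.09, adjusted p = 0.00703). AT3G44740, described as similar to glycyl enzymes, fell as well (−0.92 ± 0.15, adjusted p = 0.0184, up to 0.0732 without a single array). Both AT1G18950 and AT3G44740 exceeded the blank spots at 3 d on 2 arrays in the bdl cross and 3 in the Col-0 cross. The other 3 tested, AT5G10880, AT3G16565 and AT5G19720, had 6 d ratios of −0.81, −0.48 and −0.08 and were not called. AT1G27160, AT4G16510 and AT5G38750 were above the blank spots on at most 1 array at 3 d and were not tested.

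The other genes that act around charging were read from lists of their own. Over all genes tested, 26.7% fell and 26.7% rose at 6 d, and 6.1% fell and 7.01% rose at 3 d. These lists are small, and their counts were not tested against those shares. GatCAB is the amidotransferase that completes glutaminyl-tRNA in organelles; 2 of its 3 subunit genes fell at 6 d, AT3G25660 (−1.15, limma adjusted p = 0.00323) and GATB (−0.73, adjusted p = 0.00503), and AT4G32915 had −0.84 without a call. Of 17 organellar translation factors, 11 fell and 2 rose at 6 d, with a median of −0.52, and 3 fell and 0 rose at 3 d. RABE1b, the plastid elongation factor Tu, fell 4.86-fold (−2.28, adjusted p = 0.00257), and the mitochondrial elongation factor Tu gene AT4G02930 fell at both stages (−0.74, adjusted p = 0.0305, and −1.84, adjusted p = 0.00269). The other 2 falls at 3 d were AT2G24060 and AT3G01800, both at −0.60. The 2 rises at 6 d were the plastid initiation factors FUG1 (0.82) and AT4G11175 (1.53).

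Genes of cytosolic elongation were called in both directions. Of 14 tested, 4 rose and 3 fell at 6 d, which is 21.4% that fell beside 26.7% of all genes each way, with a median of −0.32, and 0 were called at 3 d. Of the rises, 3 were genes of the factor eIF5A: ELF5A-1 at 3.10 (8.57-fold), ELF5A-3 at 2.68 (6.39-fold) and FBR12 at 1.53. The falls were the eEF1A gene AT1G07930 (−1.54), the eEF1B gamma gene AT1G09640 (−1.25) and the eEF2 gene LOS1 (−0.62).

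Of 16 genes of transfer RNA maturation, 7 fell and 1 rose at 6 d (median −0.47), beside 26.7% of all genes each way. At 3 d 1 of 13 rose and 1 fell, beside 7.01% and 6.1% of all genes. The proteins PRORP1 and PRORP3 are RNase P enzymes that trim the leader of precursor transfer RNAs, PRORP1 in the organelles and PRORP3 in the nucleus. PRORP1 fell 4.14-fold at 6 d (−2.05, limma adjusted p = 0.00257), and PRORP3 rose at both stages (1.51, adjusted p = 0.0292, and then 3.60, adjusted p = 0.00364). TRZ3, a gene of the RNase that trims the opposite end, fell at both stages (−0.64 and −1.23). Among 5 genes that sense or follow the charging state, 2 fell at 6 d, both for the alpha subunit of eIF2 (AT2G40290 at −1.47 and EIF2 ALPHA at −0.91), while the kinase GCN2 had −0.32 without a call (adjusted p = 0.732). Of all these neighbours, the genes named for a count of 5 or fewer were picked after their values were seen, except the 3 highest and 3 lowest of those called at each stage.

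**Figure D4:**
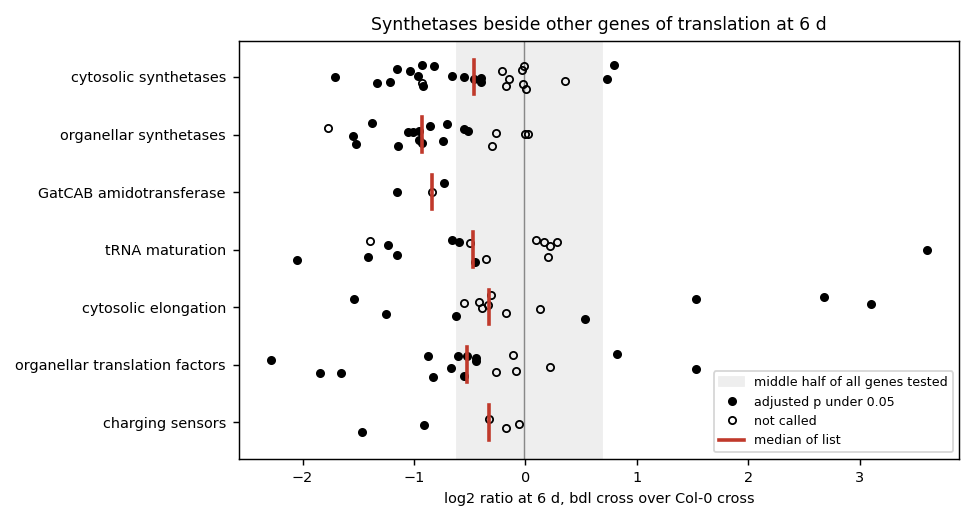
Log2 ratio at 6 d (bdl cross over Col-0 cross, horizontal axis) of each tested gene in 7 lists, filled where the limma adjusted p is under 0.05; red bars are list medians, the grey band spans the quartiles of all genes tested (−0.61 to 0.69), and height within a list has no meaning. The organellar synthetases have the lowest median, −0.93, and the cytosolic synthetases one of −0.47.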

How the data were processed

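RNA of the 2 crosses shared each 2-colour array, 4 arrays per stage, and per the labels Cy5 marked the bdl cross on replicates 1 and 2, and the Col-0 cross on replicates 3 and 4. The deposited 3 d files give 1 linear intensity per spot and cross, in which the authors had already balanced the channels, as the array medians of the ratio near 0 show. For 6 d, the authors' deposited table of log2 ratios was used. Its rows were named by equality with the 3 d log2 ratios (within 1e-06; 24661 of 28399 rows matched 1 spot, 0 with the sign turned), so the 6 d direction rests on the same convention holding for all columns. The scanner, background correction and genome build were not given in the sources used here. Slides and scan dates were not used, so none was tested as a batch. No pair of arrays held equal values.

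Symbols came from the RefSeq gene table (assembly TAIR10.1, names alone), which holds all 55 members. A locus took its brightest probe at 3 d. The 3 d filter asked for a signal over the 95th percentile of the blank spots, in 1 channel or both, on at least 2 arrays. A gene also needed 3 values or more, from both dye orientations. The 6 d fit and the stage fit used no filter on dim probes. That left 19218 genes at 3 d, 19972 at 6 d and 18836 for the stage difference. The ratios were fitted with limma 3.58.1 (lmFit, eBayes; R 4.3.3, with version 1.17.8 of data.table) and a probe-specific dye term, and for the stage difference in all 8 arrays with a shared dye term. Lists are described by counts and medians, with no test. Figures were drawn with Python 3.11.15 and matplotlib 3.10.9. The fits were tested on simulated data.

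Named members were those called at 3 d, the 10 largest rises and falls at 6 d, the 10 largest stage differences, those with embryo or ovule names, and the widest pairs for an amino acid, besides a few named after their values were seen. Members and lists were chosen with earlier results of these data known. The compartment lists, the neighbouring lists and the marker lists come from general knowledge of the enzymes. Precision is limited by the number of arrays. Alternatives tried were the dim-probe filter, the dye term, normalization, background correction, the value table, the probe rule, the variance prior, centring, the replicate block and leaving out each array.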

Additional observations from a re-analysis of the deposited data

Results flagged for a closer look

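Within groups of 4 arrays, 1 array lay far from the other 3 in 7 of 95 member and stage groups, where chance gives about 5. At 3 d these were ALATS on replicate 1 (0.015), OVA1 on replicate 4 (1.84) and EMB2369 on replicate 4 (0.25). At 6 d they were AT3G04600 on replicate 3 (−0.65), EDD1 on replicate 2 (−0.23), AT5G26710 on replicate 3 (−2.15) and AT5G27470 on replicate 2 (−1.03). OVA1 on replicate 4 also had signals of 125 and 35, against 4421 to 7998 on the other arrays.

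The cross difference itself differed between 3 d and 6 d for 29 of 51 members by limma's test of the stage term. Of these, 26 were lower at 6 d and 3 higher, where 20.7% of all genes tested were lower and 23.9% higher. The 10 largest differences, 6 d minus 3 d, were 2.83 for AT1G17960, −1.92 for AT5G26710, −1.72 for OVA6, −1.48 for AT1G18950, −1.35 for AT4G33760, −1.35 for AT5G26830, −1.22 for AT1G44835, −1.12 for AT4G31180, −1.10 for AT3G58140 and −1.01 for AT1G66530. AT5G26710 was not above the blank spots at 3 d in the Col-0 cross, and its call (limma adjusted p = 0.044) was lost with the replicate block and without replicate 1.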

How the results depend on the processing

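At 3 d, 2 members and 2521 genes were called. The members called were 1 with no filter on dim probes (1714 genes), 16 with both channels above the blank spots on all 4 arrays (5373 genes), 12 with no dye term (5075 genes) and 11 with a dye term that follows the blank spots (4863 genes). They were 8 with normexp and loess (4123 genes), 1 with the mean over kept probes (2110 genes) and 18 with an intensity trend (5716 genes). Loess alone and the value table each gave 2. The main dye term followed the labels, which give replicates 1 and 2 the same orientation and replicates 3 and 4 the reverse. At 3 d the blank spots grouped the arrays in another way. On the log2 scale their median was above 0 on replicates 1 (1.28) and 4 (0.79), and below 0 on replicates 2 (−1.18) and 3 (−1.32). Which grouping holds was not tested, so the main 3 d count rests on the labelled orientation. Without single arrays the counts ran from 0 to 7; with the dye term kept they were 0 by limma, over all genes too, with 7 to 10 members at an unadjusted p under 0.05 (14.6% to 22.2% of those tested, against 25.5% to 30.5% of all genes). The cause of these shifts was not tested. The 3 d family median of −0.20 became −0.15 with normexp and loess and ran from −0.19 to −0.15 without single arrays.

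At 6 d, the 34 calls ran from 33 to 35 under the other settings and from 25 to 35 without single arrays, and the family median of −0.74 ran from −0.71 to −0.70. The organellar minus cytosolic median of −0.33 became −0.41 with the mean over probes. The 29 calls for the stage difference ran from 28 to 33, and from 24 to 30 without single arrays. With the replicate block in place of the dye term there were 27, with 2 calls lost (adjusted p up to 0.0546). Same-numbered arrays of the stages correlated at −0.04, −0.04, −0.08 and −0.07 in their deviations from the stage mean, and differently numbered arrays at −0.08 to 0.11. Such deviations depend on each other within a stage, so they cannot settle whether the numbers mark shared material. The labels do not say. No result changed sign under these alternatives.

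Probes near the blank spots at 3 d limit NS2, EDD1, AT1G18950, AT3G44740 and AT5G26710, and EMB2768 on replicate 1. Depth at 6 d could not be read, since ratios alone were used.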
